A study of Mus musculus with 6 samples.

Results

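The genes described here are Myc, Mycn, Mycl, Max, Mxd1, Mxi1 and Mnt, which encode the MYC network of transcription factors, and Myb, Mybl1 and Mybl2, which encode the MYB family. They were taken as every probe set that the platform annotation assigns to 1 of these 10 genes alone, and the set was selected on fold changes of the same genotype comparison, which were known. That gave 22 of the 45037 probe sets on the array and 10 of the 18193 genes that have a probe set of their own. Whole uteri taken at 3.5 dpc were measured on Affymetrix mouse expression arrays, 3 for Arid1a d/d mice and 3 for Arid1a f/f mice. The comparison asks which uterine genes change around implantation when Arid1a, which encodes a DNA-binding member of SWI/SNF chromatin remodelers, is lost. Arid1a d/d mice carry Cre recombinase at the Pgr locus together with floxed Arid1a alleles (Pgr cre/+ Arid1a f/f), so that the gene is deleted in cells that make the progesterone receptor and kept in the others. Arid1a f/f mice carry the floxed alleles and, by the genotypes given in the methods, no Cre. Cre was not measured alone, so the Cre allele and the loss of Arid1a cannot be told apart.

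MYC, MYCN and MYCL are basic helix-loop-helix leucine zipper proteins that bind E-box sequences as dimers with MAX and raise the transcription of genes for ribosome production, metabolism and cell growth. MXD1, MXI1 and MNT are also partners of MAX, and their dimers occupy the same E-boxes and recruit SIN3 corepressors, so they act as antagonists of MYC. MYB proteins bind DNA through a domain of tryptophan-rich repeats. MYB is known for keeping progenitor cells of the blood and of some epithelia in an immature, dividing state, MYBL1 for male meiosis, and MYBL2 for switching on genes of G2 and mitosis together with the MuvB complex and FOXM1. In the uterus, estrogen drives the epithelium to divide and progesterone halts that division before implantation, and Myc is a known early estrogen-responsive gene there.

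Promoters of 8 of the 10 genes, each running from 250 bases before to 50 bases after an annotated start, were read from the RefSeq table for GRCm38.p6. Myc and Mybl1 had no entry there. They were searched on both strands for the E-box CACGTG, which MYC-MAX and the antagonist dimers bind, and for the E2F motif in the forms TTTCGCGC, TTTCGCGG, TTTGGCGC and TTTGGCGG. The E2F motif was added after the promoter letters had been seen. Mycn and Myb are printed because they were the members with the largest fold changes and each holds E2F letters, and Mnt and Max because each holds an E-box. Capitals mark the motif letters, and the Mycn and Myb sequences end at the base before the start.
Mycn, chr12:12941837-12942086, minus strand: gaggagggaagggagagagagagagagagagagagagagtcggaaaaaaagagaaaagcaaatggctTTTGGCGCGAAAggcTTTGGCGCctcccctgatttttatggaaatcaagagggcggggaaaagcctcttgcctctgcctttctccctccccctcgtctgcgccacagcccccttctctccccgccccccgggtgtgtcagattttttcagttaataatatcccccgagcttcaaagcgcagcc
Myb, chr10:21160985-21161234, minus strand: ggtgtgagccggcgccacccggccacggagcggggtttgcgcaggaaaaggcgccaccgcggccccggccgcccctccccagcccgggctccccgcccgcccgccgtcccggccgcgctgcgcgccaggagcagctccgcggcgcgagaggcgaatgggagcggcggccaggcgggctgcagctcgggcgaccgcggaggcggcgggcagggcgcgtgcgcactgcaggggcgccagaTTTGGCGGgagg
Mnt, chr11:74830764-74830863, plus strand: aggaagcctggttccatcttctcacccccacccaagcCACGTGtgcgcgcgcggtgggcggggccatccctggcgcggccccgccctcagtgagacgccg
Max, chr12:76962229-76962318, minus strand: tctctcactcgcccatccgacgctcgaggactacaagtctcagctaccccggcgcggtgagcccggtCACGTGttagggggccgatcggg
In Mycn the E2F letters began 183, 179 and 168 bases before the start, and the first match and the second, which reads on the other strand, overlap. In Myb they began 12 bases before it. The E-box of Mnt began 123 bases before its start, and that of Max 3 bases before its start, so that it spans the start. The windows of Mycl, Mxd1, Mybl2 and all 3 of Mxi1 held neither set of letters.

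**Figure D1:**
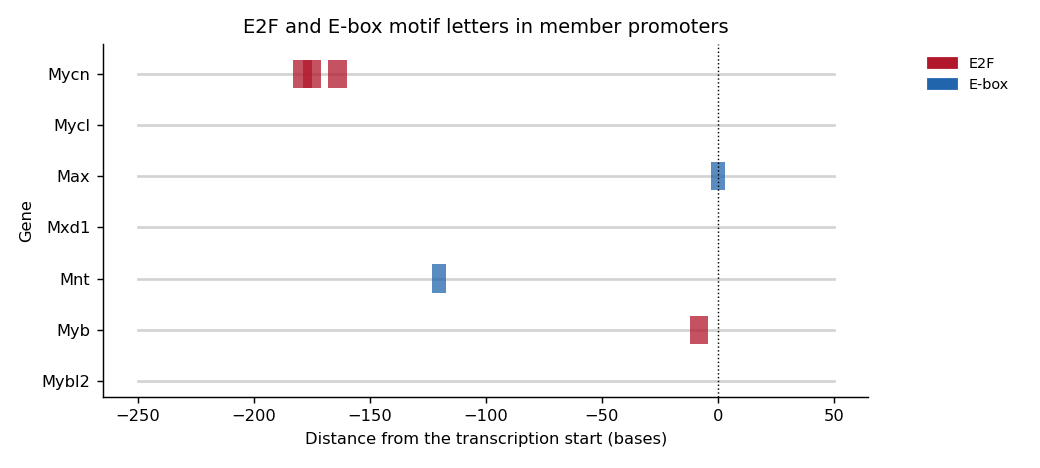
Positions of E2F letters (red) and E-box letters (blue) in the promoters of the 7 members with 1 window in the RefSeq table, on the strand of the gene; the horizontal axis is the distance in bases from the annotated start (dotted line), and grey lines are the windows searched. Mycn holds 3 E2F matches, of which a pair overlap, Myb holds 1, and Mnt and Max hold 1 E-box each.

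Values are normalized intensities on a linear scale, and genotypes were compared on the log2 scale, so that a log2 fold change above 0 stands for more signal in Arid1a d/d mice. A probe set or gene is said to be called when its adjusted p was under 0.05 in a limma fit across all probe sets. Of all probe sets, 2.42% were called higher and 2.35% were called lower in Arid1a d/d mice. Because the members were chosen with this comparison known, their calls and fold changes are a description and nothing is read from their number. The targeted gene gave 51.9, 51.91 and 58.15 on the Arid1a d/d arrays, against 83.58, 86.85 and 103.9 on the Arid1a f/f arrays, a log2 fold change of -0.76 (standard error 0.12). A dimmer Arid1a probe set gave -0.61. Whether these probe sets lie in the deleted part is not known here. The median of all intensities was 3.12, and since the table holds no detection calls, a value near or below it cannot be told from background. The labels do not say that the 3 samples of a genotype came from separate mice, so the spread is that between these samples. In whole uterus, fewer cells of a type and less RNA per cell cannot be told apart.

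Of the 22 member probe sets, 3 were called higher and none lower (4 higher and 4 lower at an unadjusted p under 0.05 by limma). At that unadjusted threshold, limma had 4177 of all 45037 probe sets higher and 4156 lower. The 3 called belong to Mycn and Myb. On 5 probe sets all Arid1a d/d values lay above all Arid1a f/f values, and on 4 all lay below, where 11.0% and 11.5% of all probe sets did so. The genotypes overlapped on the other 13. The median log2 fold change over the 10 genes, each by its brightest probe set, was 0.01, against -0.02 over all genes.

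**Figure D2:**
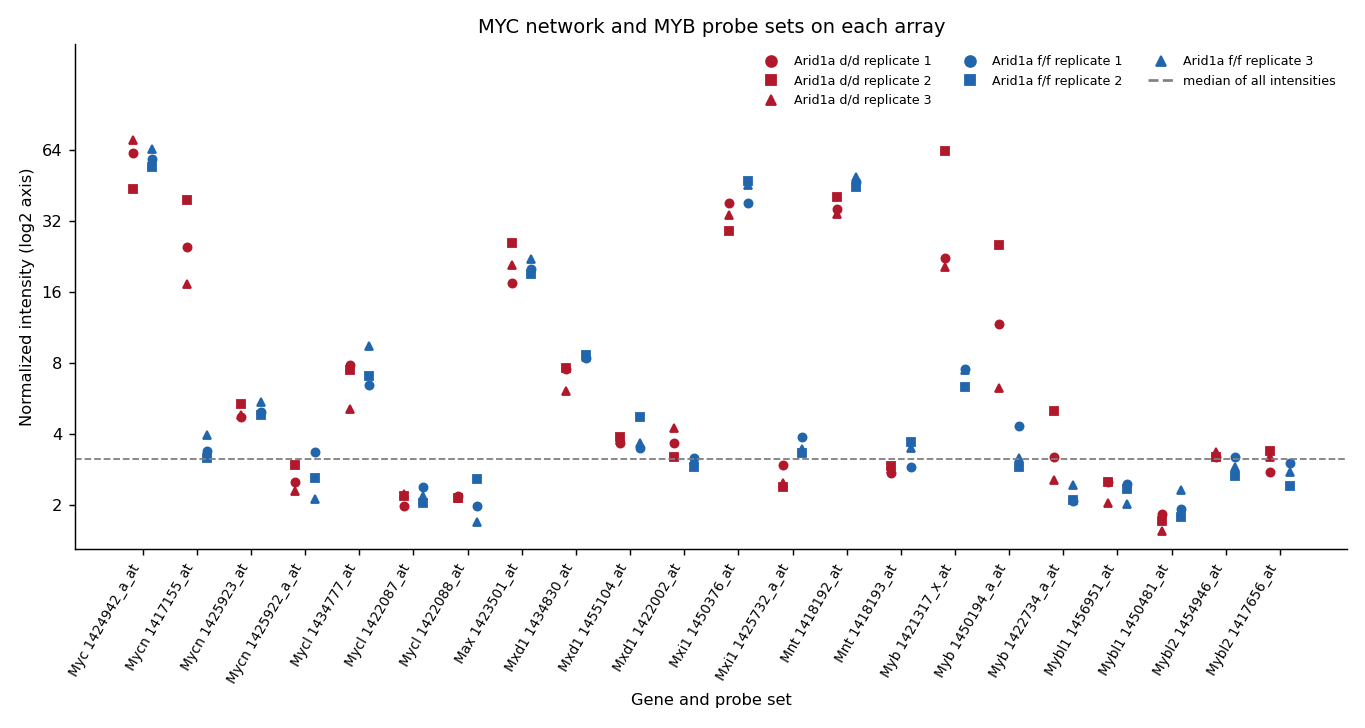
Normalized intensity (log2 axis) of each of the 22 member probe sets on each array, with Arid1a d/d in red on the left and Arid1a f/f in blue on the right of each pair, and a symbol for each replicate; the dashed line is the median of all intensities, 3.12. Mycn 1417155_at and the first pair of Myb probe sets separate the genotypes widely, Myc and Max overlap, and the brightest Mxi1 and Mnt probe sets lie lower in Arid1a d/d mice.

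Among the MYC genes, only Mycn had a called probe set. Its brightest probe set, 1417155_at, gave 24.73, 39.31 and 17.2 on the Arid1a d/d arrays, against 3.39, 3.17 and 3.95 on the Arid1a f/f arrays. Every Arid1a d/d array was thus far above every Arid1a f/f array, and the Arid1a f/f values were close to the median of the table. The means were 27.1 ± 11.2 in Arid1a d/d mice and 3.50 ± 0.40 in Arid1a f/f mice (SD, n = 3 each). The log2 fold change, from the means of log2 values, was 2.87, or 7.33-fold (standard error 0.26, 95% interval 2.29 to 3.46). Because the Arid1a f/f values may be background, the size of this fold is uncertain. The log2 fold change lay between 2.56 and 3.16 when each array was left out in turn, and was 2.56 without Arid1a d/d replicate 2. The other Mycn probe sets did not share the difference. On 1425923_at the values were 4.71, 5.36 and 4.83 in Arid1a d/d mice and 4.93, 4.83 and 5.44 in Arid1a f/f mice, with a log2 fold change of -0.03 and an interval of -0.26 to 0.20. On 1425922_a_at they were 2.49, 2.94 and 2.3 against 3.36, 2.61 and 2.12, below the median of the table on 5 arrays. Values this low cannot be told from background, so 1425922_a_at cannot show whether Mycn differed. The values of 1425923_at were dim but above that median, so 1417155_at and 1425923_at disagree. Over all Mycn probe sets, 1425922_a_at included, the mean on the log2 scale gave 0.93, which is not taken as the size of the difference. Which part of the transcript each one reads is not known here.

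Myc itself, the member known as an early estrogen-responsive gene, gave 61.83, 43.51 and 70.53 in Arid1a d/d mice, against 58.54, 54.2 and 64.37 in Arid1a f/f mice. The genotypes overlapped, and Arid1a d/d replicate 2, the array with the most Mycn, had the lowest value. The log2 fold change was -0.04 with an interval of -0.43 to 0.36, and was 0.17 without Arid1a d/d replicate 2. Mycl, the third MYC paralog, gave 7.85, 7.46 and 5.08 against 6.44, 7.06 and 9.45 on its brightest probe set, 1434777_at, a log2 fold change of -0.18 (interval -0.62 to 0.27). Its other probe sets, 1422087_at and 1422088_at, were below the median of the table on all 6 arrays and gave -0.05 and 0.07. Max, the shared dimer partner, gave 17.42, 25.83 and 20.9 against 19.93, 19.13 and 22.04, a log2 fold change of 0.05 with an interval of -0.28 to 0.39. For Myc, Mycl and Max the genotypes thus overlapped, and with 3 arrays per genotype differences within these intervals are not excluded.

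The antagonists were measured by 7 probe sets, of which 6 had a log2 fold change below 0 and 4 had all Arid1a d/d values below all Arid1a f/f values. None of these 7 was called, and those 4 were the ones lower at an unadjusted p under 0.05. Mnt, which is made in resting and dividing cells alike, gave 36.04, 40.54 and 34.09 in Arid1a d/d mice, against 46.94, 44.73 and 49.22 in Arid1a f/f mice on 1418192_at. This was a log2 fold change of -0.35 (standard error 0.10, interval -0.59 to -0.11), and the genotypes did not overlap. The second Mnt probe set, 1418193_at, was near the median of the table and gave -0.24, with overlap.

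Mxi1 gave 38.14, 28.98 and 34.05 in Arid1a d/d mice, against 38.16, 47.28 and 45.48 in Arid1a f/f mice on 1450376_at, a log2 fold change of -0.37 (interval -0.68 to -0.07). Here the genotypes only just failed to overlap, since Arid1a d/d replicate 1 and Arid1a f/f replicate 1 were almost equal. Its dim probe set, 1425732_a_at, gave 2.95, 2.37 and 2.47 against 3.87, 3.32 and 3.44, a log2 fold change of -0.45. It was called only when Arid1a d/d replicate 1 was left out, at -0.55.

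Mxd1, which is known to rise as cells stop dividing and differentiate, gave 7.57, 7.64 and 6.1 in Arid1a d/d mice, against 8.4, 8.6 and 8.47 in Arid1a f/f mice on 1434830_at. The log2 fold change was -0.26 (interval -0.52 to -0.01), with no overlap. Its other probe sets differed from this one. On 1455104_at the genotypes overlapped (-0.06). On 1422002_at every Arid1a d/d value lay above every Arid1a f/f value (3.67, 3.18 and 4.22 against 3.16, 2.9 and 3.11), a log2 fold change of 0.26. Both of these were near the median of the table, and 1422002_at was below it on 2 arrays. The sign for Mxd1 therefore differs between probe sets, but values this close to background cannot settle its direction. Over all genes by their brightest probe set, 16.0% had every Arid1a d/d value below every Arid1a f/f value, so that this was also the case for Mnt, Mxi1 and Mxd1 is a description of 3 genes.

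**Figure D3:**
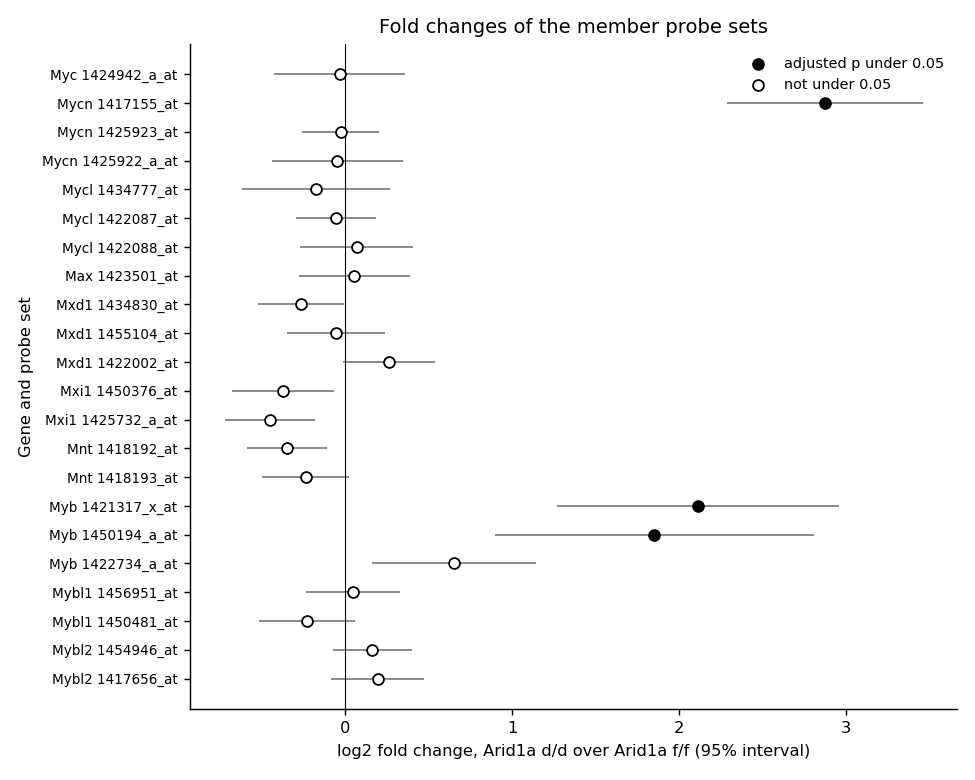
Log2 fold change, Arid1a d/d over Arid1a f/f, of the 22 member probe sets with 95% intervals from the limma fit; filled points are those with an adjusted p under 0.05. The filled points are Mycn 1417155_at at 2.87 and the Myb probe sets at 2.11 and 1.85, and the intervals of Myc, Mycl, Max, Mybl1 and Mybl2 include 0.

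In the MYB family only Myb had called probe sets. The brightest, 1421317_x_at, gave 22.2, 63.53 and 20.43 in Arid1a d/d mice, against 7.53, 6.31 and 7.49 in Arid1a f/f mice. Arid1a d/d replicate 2 was, on the log2 scale, about as far above the other Arid1a d/d arrays as these were above the Arid1a f/f arrays, and the genotypes did not overlap. The means were 35.4 ± 24.4 in Arid1a d/d mice and 7.11 ± 0.69 in Arid1a f/f mice (SD, n = 3 each). The log2 fold change was 2.11 (standard error 0.37, interval 1.27 to 2.96), and it was 1.59 without Arid1a d/d replicate 2. The ending of this name marks probes that can also bind other transcripts. A probe set without that ending, 1450194_a_at, gave 11.67, 25.2 and 6.26 in Arid1a d/d mice, against 4.33, 2.88 and 3.15 in Arid1a f/f mice, a log2 fold change of 1.85 (standard error 0.42) and of 1.33 without Arid1a d/d replicate 2. The third, 1422734_a_at, was dim and not called, with 3.18, 5.0 and 2.56 against 2.07, 2.1 and 2.42 and a log2 fold change of 0.65. Both brighter Myb probe sets thus put every Arid1a d/d array above every Arid1a f/f array and ranked the Arid1a d/d arrays alike. The order was the same on 1422734_a_at, but it was below the median of the table on 4 arrays. Its values cannot be told from background and are not counted as agreement. The Arid1a f/f values of 1450194_a_at were close to that median, so the size of its fold is uncertain. Leaving out Arid1a f/f replicate 1, 2 or 3 ended the call of both brighter probe sets, with log2 fold changes of 2.03 to 2.16 for 1421317_x_at, and leaving out Arid1a d/d replicate 1 ended that of 1450194_a_at. Only the Mycn probe set kept its call in these fits, so the member probe sets called higher numbered 1 without any one Arid1a f/f array.

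Mybl1 was below the median of the table on all 6 arrays by both of its probe sets, 1456951_at and 1450481_at, with log2 fold changes of 0.05 and -0.23. Mybl2 was close to that median. It gave 3.18, 3.18 and 3.36 in Arid1a d/d mice, against 3.18, 2.64 and 2.89 in Arid1a f/f mice on 1454946_at, a log2 fold change of 0.16 (interval -0.07 to 0.40). On its other probe set, 1417656_at, the log2 fold change was 0.19. At this brightness neither gene can be said to be present or to differ.

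Markers of cell types were measured on the same arrays. The epithelial markers, 13 genes, had summed intensities of 1271.2, 2516.4 and 1716.4 in Arid1a d/d mice, against 1288.3, 1277.4 and 1206.7 in Arid1a f/f mice. The sum was highest on Arid1a d/d replicate 2, the array with the most Mycn and Myb. Of these markers only Cdh1, which encodes E-cadherin, was called higher (log2 fold change 0.92), against 3.37% of all genes. None was called lower, and their median log2 fold change was 0.59. At an unadjusted p under 0.05, 8 of the 13 were higher and 0 lower (limma). The markers did not all go one way, since 10 had a log2 fold change above 0 and 3 below. The part of the epithelial share of the tissue in the Mycn and Myb values was not tested. The measure of the markers matters for Arid1a d/d replicate 1, whose sum lay within the range of the Arid1a f/f arrays. The mean log2 values of the same markers were 5.96, 6.91 and 6.34 in Arid1a d/d mice, against 5.82, 5.89 and 5.78 in Arid1a f/f mice, so that by this measure all 3 Arid1a d/d arrays were above the Arid1a f/f arrays. The leukocyte and blood progenitor markers had summed intensities of 428.24, 352.68 and 462.68 in Arid1a d/d mice, against 482.62, 570.58 and 773.67 in Arid1a f/f mice. Of 10 measured, 4 were called lower, against 4.06% of all genes, and none higher, with a median of -0.33. At an unadjusted p under 0.05 by limma, 5 were lower and 1 higher. Ptprc, the common leukocyte antigen, was among those lower, at -0.80, and Gata1, a blood progenitor factor, was below the median of the table on all 6 arrays. All 8 endothelial markers were called lower, against 4.06% of all genes (median -1.11). Of the stromal fibroblast and the smooth muscle markers 1 each was called lower, out of 8 and 7, with medians of -0.27 and -0.03.

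The genes whose levels followed Mycn most closely over the 6 arrays, by Pearson's r of log2 values among the 12084 genes brighter than the median, were Gnptab (0.999), Dsg2 (0.995) and Mrpl21 (0.995). Gnptab, which encodes a Golgi enzyme that tags lysosomal proteins, gave 13.25, 14.37 and 12.2 in Arid1a d/d mice, against 9.33, 9.19 and 9.5 in Arid1a f/f mice. Dsg2, a desmosomal cadherin of epithelia, gave 66.13, 83.47 and 62.67 against 27.45, 24.77 and 27.04. Those nearest Myb were Psma1, a proteasome subunit (0.997), Perp, a desmosome protein of epithelia (0.997), and Tmprss4, a membrane serine protease (0.996). Tmprss4 gave 12.49, 35.85 and 11.88 in Arid1a d/d mice, against 4.34, 4.58 and 4.62 in Arid1a f/f mice, so that Arid1a d/d replicate 2 stood out as it did for Myb. These 6 arrays form 2 genotypes, so a high r mainly repeats the genotype difference and the order of the Arid1a d/d arrays, and it is given as a description.

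**Figure D4:**
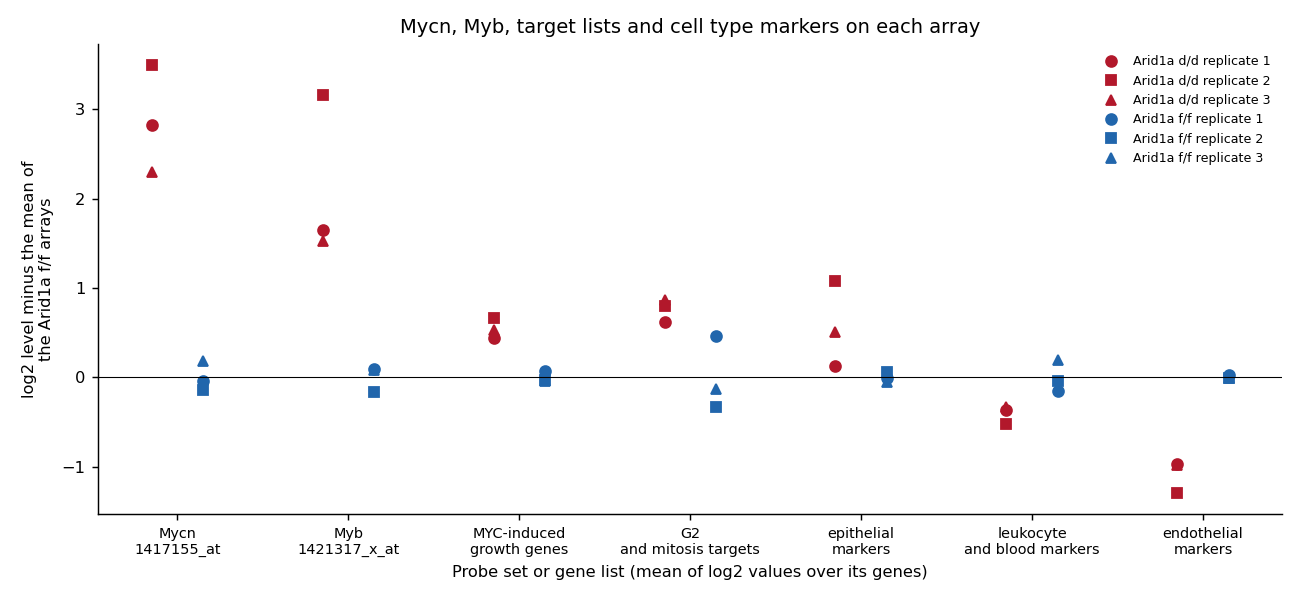
Level of Mycn, Myb, 2 target lists and 3 marker lists on each array, as the log2 value (for lists, the mean of log2 values over the genes) minus the mean of the Arid1a f/f arrays, with Arid1a d/d in red left of Arid1a f/f in blue and a symbol per replicate. Arid1a d/d replicate 2 (squares) is highest for Mycn, Myb and the epithelial markers, and Arid1a f/f replicate 1 (blue circle) stands above its group in the G2 and mitosis targets.

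Of 42 listed genes for ribosome production, nucleotide synthesis and growth that MYC proteins are known to induce, 40 were measured. Of these, 21 were called higher, against 3.37% of all genes, 19 were not called, and none was lower, also at an unadjusted p under 0.05. The gene lists were chosen with earlier results of these data known, so such counts and shares are a description. The median log2 fold change was 0.55, against -0.02 over all genes, 39 of the 40 lay above 0, and on 33 all Arid1a d/d values lay above all Arid1a f/f values, where 13.4% of all genes did so. The summed intensities were 7591.5, 8493.5 and 7987.4 in Arid1a d/d mice, against 6194.3, 5822.5 and 5888.2 in Arid1a f/f mice. All 3 Arid1a d/d arrays were above the Arid1a f/f arrays, as they were for the mean log2 value of the epithelial markers, whose part in this difference was not tested.

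Tfrc, the transferrin receptor that brings iron into dividing cells, gave 83.18, 172.21 and 76.7 in Arid1a d/d mice, against 39.79, 28.3 and 27.89 in Arid1a f/f mice (log2 fold change 1.71, adjusted p = 0.0160, limma). It was not called once Arid1a f/f replicate 2 or 3 was left out, and was 0.53 as the mean of its probe sets. Nop58, a core protein of the small nucleolar particles that modify ribosomal RNA, gave 107.75, 126.2 and 92.64 against 50.38, 54.75 and 43.84 (1.13, adjusted p = 0.00532, limma). Ccnd2, cyclin D2, gave 151.62, 152.43 and 142.37 against 74.89, 67.21 and 64.88 (1.11, adjusted p = 0.00183, limma). The nucleolar helicase gene Ddx21 gave 50.45, 54.04 and 56.4 against 25.45, 27.39 and 29.51 (0.97, adjusted p = 0.00324, limma). Nop58, Ccnd2 and Ddx21 were higher on each Arid1a d/d array and stayed called in all 6 fits that leave out an array. With Arid1a d/d replicates 2 and 3 left out in turn, 10 and 11 growth genes were called higher, and with Arid1a f/f replicates 1, 2 and 3 left out in turn, 12, 4 and 9 were.

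The 21 partners and cofactors of the network had a median of 0.08. At an unadjusted p under 0.05 by limma, 6 were higher and 2 lower. After adjustment, 4 were called higher, against 3.37% of all genes, and none lower. They were Skp2, a ubiquitin ligase subunit for MYC and p27, with 16.47, 19.0 and 21.86 in Arid1a d/d mice against 11.62, 6.93 and 11.93 in Arid1a f/f mice (0.94, adjusted p = 0.0402, limma), and Mycbp, a MYC-binding protein (0.62, adjusted p = 0.0262, limma). The remaining pair were Ruvbl1 and Ruvbl2, the ATPases of MYC-associated chromatin complexes (0.55 and 0.45, adjusted p = 0.0193 and 0.0478, limma). None was called when replicate 2 or 3 of Arid1a d/d, or replicate 2 or 3 of Arid1a f/f, was left out, and 1 was called without Arid1a f/f replicate 1, so the count rests on all of these arrays. Of the 11 genes that MYC is known to repress, 1 was called lower, against 4.06% of all genes, and none higher (7 lower and 1 higher at an unadjusted p under 0.05). The median was -0.40. The called gene was Ndrg1, a differentiation and stress gene, with 51.87, 38.54 and 44.01 in Arid1a d/d mice against 84.22, 116.8 and 132.06 in Arid1a f/f mice (-1.29, adjusted p = 0.00824, limma), and it stayed called in all 6 fits that leave out an array. Without Arid1a d/d replicate 1 the number called lower was 2.

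**Figure D5:**
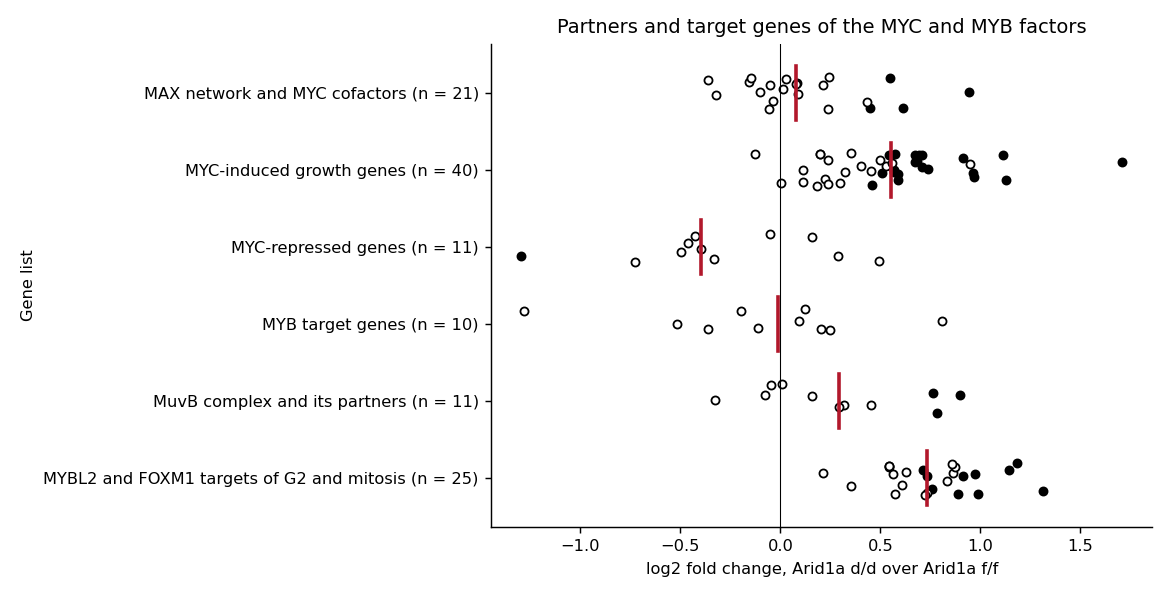
Log2 fold change, Arid1a d/d over Arid1a f/f, of each measured gene of 6 lists of partners and targets; filled points are genes with an adjusted p under 0.05 (limma), and the red bar is the median of the list. The medians are 0.55 for the MYC-induced growth genes, 0.73 for the G2 and mitosis targets, -0.40 for the MYC-repressed genes and -0.01 for the MYB target genes.

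Genes known as targets of MYB, mostly from blood cells, showed no common direction, with 5 of 10 above 0 and 5 below. None was called in either direction by limma (1 higher and 3 lower at an unadjusted p under 0.05), and their median was -0.01. The methods' t-test called 0 higher and 2 lower at an unadjusted p under 0.05 and none after adjustment. Kit, the stem cell factor receptor, gave 5.45, 5.91 and 9.04 in Arid1a d/d mice, against 10.06, 15.46 and 26.88 in Arid1a f/f mice, with no overlap (-1.28, adjusted p = 0.0655, limma). Ccne1, cyclin E1, gave 16.06, 24.44 and 21.7 against 16.28, 9.58 and 10.22 (0.81, adjusted p = 0.0816, limma). Leaving out Arid1a f/f replicate 1 gave 1 call in each direction, and leaving out Arid1a d/d replicate 1 gave 1 lower.

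Of 11 listed genes of the MuvB complex and its partners, 3 were called higher, against 3.37% of all genes, and none lower. At an unadjusted p under 0.05 by limma, 5 were higher and 0 lower. The median over the 11 was 0.29. Lin54, the DNA-binding subunit of MuvB, gave 11.93, 15.55 and 14.22 in Arid1a d/d mice, against 7.13, 9.0 and 6.35 in Arid1a f/f mice (0.90, adjusted p = 0.0167, limma). Tfdp1, the dimer partner of E2F proteins, gave 91.87, 96.38 and 96.58 against 56.64, 54.37 and 54.65 (0.78, adjusted p = 0.00428, limma). Rbl1, the pocket protein p107, gave 29.75, 31.98 and 30.94 against 22.41, 14.75 and 18.25 (0.76, adjusted p = 0.0262, limma). Tfdp1 stayed called in all 6 such fits, and the number called was 1 when Arid1a d/d replicate 2 or 3 or Arid1a f/f replicate 3 was left out.

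The genes of G2 and mitosis that MYBL2 and FOXM1 are known to switch on all had a log2 fold change above 0, with a median of 0.73. Of 25, 10 were called higher, against 3.37% of all genes, 15 were not called and none was lower. At an unadjusted p under 0.05 by limma, 21 were higher and 0 lower. Ttk and Bub1, kinases of the spindle checkpoint, had 1.31 and 1.18 (adjusted p = 0.0112 and 0.0195, limma), Birc5, the chromosomal passenger protein survivin, had 1.14 (adjusted p = 0.0231, limma), and Cdk1, the kinase that drives entry into mitosis, had 0.99 (adjusted p = 0.0319, limma). Cdk1 gave 77.37, 100.37 and 87.69 in Arid1a d/d mice, against 61.47, 33.87 and 41.77 in Arid1a f/f mice. Arid1a f/f replicate 1 was the highest of its genotype here as over the whole list, whose mean log2 values were 5.05, 5.23 and 5.30 in Arid1a d/d mice and 4.90, 4.10 and 4.30 in Arid1a f/f mice. Without that array 18 were called, and without Arid1a d/d replicate 1, 2 or 3 the numbers were 6, 2 and 1. Leaving out Arid1a f/f replicate 2 left none called, and leaving out replicate 3 of that genotype left 1.

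Motif letters were counted in the promoters of the same lists. E2F letters stood in 1.60% of all 32851 promoters of this length and in 2.74% of the 14452 measured genes with a promoter. They stood in 10.2% of the 490 genes called higher and in 1.06% of the 565 called lower. Beside Mycn and Myb, the genes named above that hold them are Tfdp1, Rbl1 and Cdk1, and Ranbp1 of the growth genes holds them too and was called higher, while Ncl and Mlxipl hold them and were not called. The E-box stood in 7.15% of all promoters and in 10.2% of the measured genes. It stood in 12.7% of the genes called higher and in 10.3% of those called lower. Beside Mnt and Max, the genes named above from the lists that hold it are Lin54, Tfdp1 and Ttk, which were called higher, and Mlxipl, which was not called. The E-box was in 10 of the 34 growth genes with a promoter (29.4%), of which 3 were among the 17 called higher and 7 among the 17 not called. A match of letters is a description and not a bound site.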

How the data were processed

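Whole uteri of Arid1a d/d and Arid1a f/f mice at 3.5 dpc were measured on 3 Affymetrix arrays each. By the methods, the authors ran RMA with global scaling and selected genes with a fold change filter. No test is named there for the arrays. The methods' t-test means the Student's t-test of their statistics section, applied here to the arrays as an alternative. The deposited values are intensities on a linear scale from 1.29 to 4478.7 for 45037 probe sets. A trimmed mean of 100 per array, as the methods describe, does not hold in them, and the rescaling behind this is not stated. A log2 table had been foreseen, so log2 was taken first.

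The comparison of genotypes used lmFit and eBayes of limma 3.58.1 under R 4.3.3 on all 6 arrays with no covariate. It was two-sided, with Benjamini-Hochberg adjustment across the whole table and a threshold of 0.05. A gene was represented by its brightest probe set among those that name it alone. Probe sets that name 1 gene numbered 34945, those that name several 932, and 9160 are unnamed here. The members, gene lists and rules were chosen with earlier results of these data known. Named were every member probe set, Arid1a, up to 4 called genes per list without overlap (otherwise the 2 with the largest absolute fold change), and the 3 genes most like each called member. Cdh1, Ptprc, Gata1, Ranbp1, Ncl and Mlxipl fall outside this rule and were picked once their values were known. The growth genes Phb and Mrto4 share probe sets with other genes and were not measured. Promoters were matched by symbol.

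Alternative fits used quantile normalization, median centring, a replicate block, bright probe sets only, trend and robust options, array weights, an offset of 8 before log2, the methods' t-test, other probe sets per gene, and leaving out each array. A run on simulated data, drawn with the means and spreads of all 45037 probe sets for Arid1a d/d against Arid1a f/f, found 76 of the 100 that had been shifted by 1 (log2) and 98 of the 100 shifted by 2, and made 4 false calls. Noise in that run was independent between probe sets and arrays, without deviations shared across genes. Its false calls are thus no error rate for these data. The number of arrays limits the precision.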

Additional observations from a re-analysis of the deposited data

How the results depend on the processing

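No called value changed its direction under any alternative run. Of the summaries by list and over all probe sets, 280 stayed close to the reported value and 66 moved, and of single genes and probe sets 526 stayed on the same side of the threshold, 85 lost their call and 7 gained one. All 1090 higher and 1057 lower calls over all probe sets, and those of every list, became 0 under the methods' t-test after adjustment. The authors' array analysis names neither that test nor an adjustment. At an unadjusted p under 0.05 that test called 3386 probe sets higher and 3316 lower, 3 and 2 of the member probe sets and 29 growth genes higher. With log2 of the intensity plus 8, which shrinks dim probe sets, 687 probe sets were called lower, 1 member probe set higher (Mycn 1417155_at, at 1.56) and 1 G2 and mitosis gene higher, and the MuvB median was 0.15. The 2 Myb probe sets then gave 1.39 and 0.88 and were not called. With trend and robust options 1450194_a_at of Myb also lost its call. MYC-repressed genes called lower numbered 2 with quantile normalization, with bright probe sets only and with the mean of probe sets, and 3 with trend and robust options. MYB targets called lower numbered 1 with quantile normalization, bright probe sets only, trend and robust options, array weights and the mean of probe sets. MYB targets called higher numbered 1 with the mean of probe sets and without probe sets that can bind several transcripts. The MuvB median was 0.19 with the mean of probe sets.

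Replicate numbers are shared between the genotypes, and the labels do not say whether they pair the arrays. Same-numbered arrays deviated together with correlations of -0.0036, 0.0467 and 0.1428 for replicates 1, 2 and 3. Arid1a d/d replicates 2 and 3 correlated best with their own number, and replicate 1 did not. With 3 arrays per genotype, values this small cannot decide whether the arrays are paired. With the replicate number as a block, 1126 probe sets were called higher and 1039 lower, and 1 MYB target was called lower.

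Leaving out each array gave 241 to 941 probe sets called higher and 337 to 878 lower, lowest without Arid1a f/f replicate 2, and 1 to 3 member probe sets higher and 0 to 1 lower. By list, the calls higher ranged from 0 to 3 for the MAX network, 4 to 19 for the growth genes, 0 to 1 for the MYB targets, 1 to 2 for MuvB and 0 to 18 for G2 and mitosis. Calls lower ranged from 1 to 2 for the MYC-repressed genes and 0 to 1 for the MYB targets. Medians ranged from -0.0052 to 0.11 for the MAX network, -0.093 to -0.00033 for the MYB targets and 0.14 to 0.34 for MuvB.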
